A study of Mus musculus with 11 samples.

Results

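The constitutive subunits of the proteasome were examined in 4T1 cells, a cell line from a mouse mammary carcinoma. The members are the rows of the expression table whose gene name is Psma, Psmb, Psmc or Psmd followed by a digit, without Psmb8, Psmb9 and Psmb10, the interferon-inducible catalytic subunits. This rule took 37 of 24197 rows, and it used names and no measured value. Of the 37 genes, 31 encode subunits of the assembled 26S particle of somatic cells: 7 in the alpha ring and 7 in the beta ring of the 20S core, 6 ATPases and 11 non-ATPase subunits of the 19S regulator. The pattern also took 3 chaperones of 19S assembly (Psmd5, Psmd9 and Psmd10) and 3 genes outside that particle (Psma8, Psmb11 and Psmc3ip).

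All groups were unmodified 4T1 cells grown in culture, so no host cells were present. Vehicle control cells (2 libraries) were collected at 72 h. 4HC is 4-hydroperoxy-cyclophosphamide, a form of the alkylating drug cyclophosphamide that becomes active without liver metabolism. 4HC cells (3 libraries) were exposed to 5 uM 4HC for 4 h and collected after 68 h in fresh medium. The third group (3 libraries) had the same 4HC exposure with 10 ug/mL of an antibody that blocks IFNAR1, a chain of the type I interferon receptor, kept on the cells throughout, and there was no group with the antibody alone. IFNβ cells (3 libraries) received 250 U/mL of interferon-β for 4 h. The treatment labels of the IFNβ samples state that collection came 2 h later, which is the time used here, but a protocol paragraph states 68 h. The IFNβ and 4HC groups therefore differ in time after exposure as well as in agent. By the study's methods they also differ in the number of cells seeded per well and in the time since the last change of medium. The vehicle control was the 72 h group, so IFNβ over control may carry the same differences in seeding and medium. The part of these differences in the values was not tested. Control, 4HC and IFNβ values thus answer how the proteasome genes stood after an activated drug and after interferon itself. The antibody group shows their level after 4HC with the IFNAR1 antibody present.

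The proteasome is the protease that degrades ubiquitin-tagged proteins. The 19S regulator binds the ubiquitin chain, removes it and threads the protein with its ATPase ring into the 20S core, where the beta ring cuts it. The alpha ring gates entry to the core. In cells that respond to interferon the catalytic beta subunits Psmb5, Psmb6 and Psmb7 can be replaced by Psmb8, Psmb9 and Psmb10, which gives the immunoproteasome that shapes peptides for MHC class I. In mammals, Nrf1 (encoded by Nfe2l1) drives proteasome genes through antioxidant response elements when proteasome activity is short.

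RefSeq promoter windows (build GRCm38.p6, 250 bases before and 50 bases after the start) were found for 30 of the 37 genes. The window of Psmb5, at chr14:54617946-54618245 on the minus strand, and that of Psmb6, at chr11:70525107-70525406 on the plus strand, are printed because both catalytic subunits carry the core letters of the antioxidant response element, TGACNNNGC, shown in capitals. That of Psmc2, at chr5:21785025-21785324 on the plus strand, belongs to the gene furthest below control after 4HC among the 31 subunits, and its capitals mark a CCAAT box. That of Psmd8, at chr7:29180624-29180923 on the minus strand, belongs to the gene furthest above control after 4HC among them and holds no match to the motifs searched. Psmc2 had 2 windows in the table, of which the first is shown.
Psmb5: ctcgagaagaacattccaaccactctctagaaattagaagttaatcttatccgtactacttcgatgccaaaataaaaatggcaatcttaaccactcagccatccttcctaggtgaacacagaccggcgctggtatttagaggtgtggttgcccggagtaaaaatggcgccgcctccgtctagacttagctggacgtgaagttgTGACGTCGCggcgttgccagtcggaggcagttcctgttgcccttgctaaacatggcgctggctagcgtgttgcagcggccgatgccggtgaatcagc
Psmb6: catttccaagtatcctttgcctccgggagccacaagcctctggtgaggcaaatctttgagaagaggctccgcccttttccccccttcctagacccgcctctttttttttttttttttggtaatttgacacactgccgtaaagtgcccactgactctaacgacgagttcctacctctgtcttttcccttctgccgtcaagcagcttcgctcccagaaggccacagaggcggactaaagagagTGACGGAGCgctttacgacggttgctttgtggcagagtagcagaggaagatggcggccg
Psmc2: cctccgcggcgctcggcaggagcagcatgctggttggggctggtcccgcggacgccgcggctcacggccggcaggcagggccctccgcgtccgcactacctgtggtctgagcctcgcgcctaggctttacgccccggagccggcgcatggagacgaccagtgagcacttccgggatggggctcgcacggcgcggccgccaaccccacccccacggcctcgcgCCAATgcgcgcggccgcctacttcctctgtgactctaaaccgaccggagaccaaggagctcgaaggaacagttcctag
Psmd8: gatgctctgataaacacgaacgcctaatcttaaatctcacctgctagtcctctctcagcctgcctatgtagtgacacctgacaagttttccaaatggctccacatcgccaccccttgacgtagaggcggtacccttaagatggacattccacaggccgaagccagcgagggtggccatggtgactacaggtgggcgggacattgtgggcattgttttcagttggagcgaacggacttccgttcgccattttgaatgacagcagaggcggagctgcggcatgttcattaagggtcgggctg

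TGACNNNGC, searched on both strands, was in 5 of the 30 windows (Psmb5, Psmb6, Psmc6, Psmd12 and Psmd9), against 12.5% of 27025 promoters. CCAAT was in 13 of the 30, against 37.9% of all promoters. By class, CCAAT was in 5 of 7 alpha ring, 1 of 4 beta ring, 2 of 5 ATPase and 2 of 9 non-ATPase windows. GAAANNGAA, the core letters of the interferon response element, was in 4 of the 30 (Psmb3, Psmb4, Psmd4 and Psmd9), against 8.57% of all promoters. A match describes the letters in these windows and is not evidence of binding. Matches were counted for each motif alone, so a base could belong to more than 1 of them.

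The deposited table gives 1 value per gene and group, the mean FPKM over libraries as the authors computed it, so these means give no spread between libraries and allow no test. The authors' own comparison columns in the same table were not used. Every difference below is a ratio of those means, given as a log2 ratio after adding 0.1 FPKM or as a fold on the same scale. A gene entered the counts when its mean over the 4 groups was at least 1 FPKM, which 35 of the 37 members and 10315 of all rows did. Library depths, recovered from the value that 1 read gives in short single-exon genes, ran from 32.1 to 49.3 M reads (M for mega), with 69.4 M in the control group and 109 to 126 M in the others. At the recovered depths each of the 31 subunits was backed by at least 335 reads in a group. A 95% counting interval then reached 0.03 to 0.19 on either side of a subunit's log2 ratio. These intervals cover counting error only, not differences between cultures. Interferon target genes moved with the labels: Ifit1 was at 0.512 FPKM in control, 9.11 after 4HC, 2.16 with the antibody and 104.5 with IFNβ. Of 6 epithelial marker genes, 5 were over 1.5-fold higher after 4HC, against 23.6% of all genes. Krt8 was at 52.3 FPKM in control and 134, 136 and 91.1 in 4HC, antibody and IFNβ cells, Krt14 at 1.61, 10.1, 10.2 and 19.7, and Cdh1 at 63.0, 50.5, 49.1 and 71.4 FPKM. In contrast, 6 leukocyte and 3 endothelial marker genes stayed under 0.1 FPKM. Of 4 fibroblast markers, Col3a1 was at or near 0, Col1a1 was at 0.0723 to 0.313 FPKM, Pdgfra was at 0.497, 3.38, 4.13 and 0.442 FPKM in control, 4HC, antibody and IFNβ cells, and Dcn was listed at 0 in control and IFNβ and at 0.318 and 0.371 FPKM in the 4HC groups. Their part in the results was not tested.

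After 4HC the genes of the 20S core and of the ATPase ring were mostly lower than in control. The 11 non-ATPase 19S genes taken by the name rule were not lower as a group. The summed FPKM of the 14 core subunits was 70.0% of control after 4HC and that of the 6 ATPases was 71.1%. The sum over the 11 non-ATPase subunits was 103% of control. It leaves out 2 genes of the 19S regulator with other names, both lower after 4HC. The lid subunit gene Shfm1 was at 149 FPKM in control and 80.3 after 4HC, and the ubiquitin receptor gene Adrm1 at 37.5 and 31.7. With IFNβ the picture differed: the core stood at 101% of control, the ATPases at 94.4% and the non-ATPase subunits at 130%. With 4HC and the antibody the sums were 62.0%, 63.5% and 97.1%. All 31 subunits together took 1.013% of all FPKM in control, 0.821% after 4HC, 0.776% with the antibody and 1.09% with IFNβ.

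**Figure D1:**
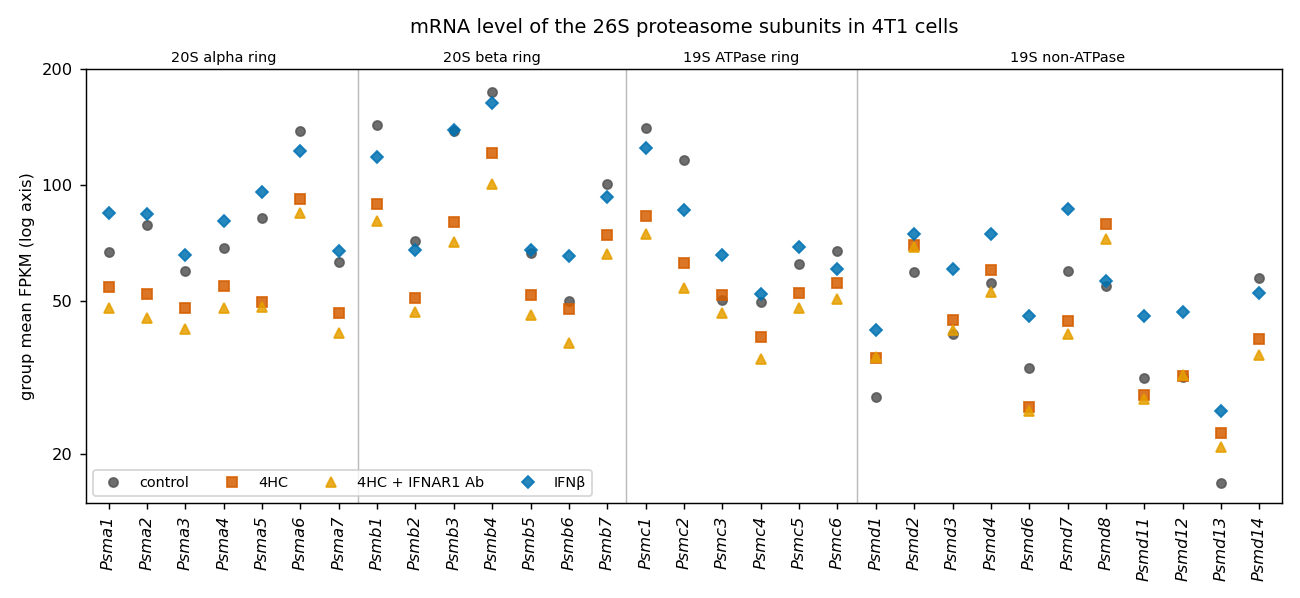
Group mean FPKM (log axis) of the 31 subunits of the 26S particle, ordered by class, with 1 point for each group (gray circles, control; orange squares, 4HC; yellow triangles, 4HC with IFNAR1 antibody; blue diamonds, IFNβ). The 14 core genes all lie lower in 4HC than in control, with Psmb4 highest at 174 FPKM in control and 121 after 4HC; the points are means with no error bar because the table holds no value per library.

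The subunits also lay closer together in level in each treated group than in control. Each of these comparisons rests on the same control mean, of 2 libraries. In control the highest subunit, Psmb4, had 10.4 times the FPKM of the lowest, Psmd13. This span was 5.35 after 4HC, 4.85 with the antibody and 6.31 with IFNβ. The SD of log2 FPKM over the 31 genes was 0.77 in control, 0.55 after 4HC, 0.52 with the antibody and 0.56 with IFNβ. The median core gene had 1.84 times the FPKM of the median non-ATPase gene in control, and 1.34, 1.33 and 1.62 times in the other groups, in the same order. Over all genes, the median log2 ratio after 4HC ran from 0.42 in the lowest to -0.20 in the highest of 20 level bins. Whether the closer levels were particular to these subunits was not tested.

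For 4HC over control, 7 of the 35 members were lower by over 1.5-fold, against 10.2% of all genes, and 1 was higher, against 23.6%. The members' median log2 ratio was -0.33, against 0.10 over all genes. The all-gene median is a shift that another scaling would remove, and relative to it the members' median was -0.43. Against that shift 28 of the 35 members were below and 7 above, 11 were lower by over 1.5-fold and 0 higher, and all genes split into 14.1% lower and 19.96% higher.

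The alpha ring gates the core, and its 7 genes were all lower after 4HC, with a median log2 ratio of -0.43. Of all 10315 genes, 4446 were below control after 4HC. Psma6, the gene with the most FPKM in this ring (mm9, chr12:56499811-56519446), was at 138 FPKM in control, 91.8 after 4HC, 84.8 with the antibody and 123 with IFNβ. Psma5 was at 81.9, 49.6, 48.1 and 95.9 FPKM in the same order. Psma2 was at 78.6, 52.2, 45.1 and 84.2 FPKM. These 3 were the alpha genes past 1.5-fold after 4HC, at 1.503-fold (Psma6), 1.65-fold (Psma5) and 1.505-fold lower (Psma2), so Psma6 and Psma2 sat just past the line. Psma7 was at 62.9, 46.5, 41.3 and 67.3 FPKM, and it passed 1.5-fold only in the antibody cells, at 1.52-fold below control. Psma1 was at 66.9, 54.4, 47.8 and 84.8 FPKM, which made it the alpha gene closest to control after 4HC and the one furthest above control with IFNβ, at a log2 ratio of 0.34. Psma3 (59.9, 47.8, 42.3 and 65.6 FPKM) and Psma4 (68.8, 54.6, 48.0 and 80.8 FPKM) lay between. With IFNβ, 6 of the 7 alpha genes were above control, as were 5362 of all 10315 genes. Psma6 was below control, at a log2 ratio of -0.17.

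The beta ring holds the active sites, and its 7 genes were also all lower after 4HC, with a median log2 ratio of -0.49. Psmb4, a structural beta subunit and the gene with the most FPKM of all 31 (mm9, chr3:94688245-94690880), was at 174, 121, 101 and 163 FPKM in control, 4HC, antibody and IFNβ cells. Psmb3, also structural, was at 138, 80.0, 71.3 and 139 FPKM, so it was 1.73-fold lower after 4HC and at the control level with IFNβ. Psmb1 was at 143, 89.0, 80.4 and 118 FPKM, which put it 1.61-fold below control after 4HC and lowest of the ring with IFNβ, at a log2 ratio of -0.28. Psmb2 was at 71.4, 50.9, 46.9 and 67.9 FPKM. In this ring the structural genes Psmb1 and Psmb3 passed 1.5-fold after 4HC, and none of the 3 catalytic genes did.

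The catalytic genes behaved unequally. Psmb5, which carries the chymotrypsin-like site, was at 66.6 FPKM in control, 51.9 after 4HC, 45.9 with the antibody and 67.9 with IFNβ. Psmb7, with the trypsin-like site, was at 101, 74.1, 66.0 and 92.9 FPKM. Psmb6, with the caspase-like site, was at 49.98, 47.5, 38.9 and 65.5 FPKM, which made it the core gene closest to control after 4HC (log2 ratio -0.07) and the one furthest above control with IFNβ (0.39). The table has a row for the microRNA gene Mir686 inside the Psmb5 span, with a mean of 218 FPKM, and how reads were shared between both rows is not given in the sources used here.

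The ATPase ring unfolds the substrate, and 5 of its 6 genes were lower after 4HC, with a median log2 ratio of -0.29. Psmc2 (mm9, chr5:21291100-21309602) lay further from control after 4HC than any other of the 31 subunits: it was at 116 FPKM in control, 62.6 after 4HC, 54.1 with the antibody and 86.1 with IFNβ. That is 1.85-fold lower after 4HC, 2.14-fold lower with the antibody and 1.35-fold lower with IFNβ. Psmc1, the ATPase with the most FPKM, was at 141, 82.9, 74.6 and 125 FPKM, or 1.70-fold lower after 4HC. Psmc3 was the exception, at 50.3, 51.9, 46.5 and 65.9 FPKM, with a log2 ratio of 0.05 after 4HC that turned to -0.06 relative to the median of all genes. Psmc4 had the least FPKM of the ring, at 49.5, 40.2, 35.2 and 52.2. Psmc5 (62.5, 52.3, 47.9 and 68.8 FPKM) and Psmc6 (67.2, 55.7, 50.6 and 60.4 FPKM) were closer to control than Psmc1 and Psmc2. The 2 ATPase genes with the most FPKM in control were the 2 furthest below it after 4HC. The same control means enter the level and the ratio, so this order does not relate separate measurements.

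The non-ATPase genes encode the scaffold, the ubiquitin receptors and the deubiquitinase of the 19S regulator. Their median log2 ratio after 4HC was 0.11, or 0.01 relative to the median of all genes, with 7 of 11 above control and none past 1.5-fold in either direction. Of all 10315 genes, 5869 were above control, 23.6% were over 1.5-fold higher and 10.2% lower. Psmd8, a lid subunit (mm9, chr7:29959205-29965692), was at 54.5 FPKM in control, 79.0 after 4HC, 72.5 with the antibody and 56.2 with IFNβ, which is 1.45-fold higher after 4HC. Psmd13 of the lid had the least FPKM of the 31, at 16.8, 22.6, 20.8 and 25.8. Psmd1, the large scaffold subunit of the base, was at 28.1, 35.4, 35.6 and 42.0 FPKM, and Psmd2, the other scaffold subunit, at 59.5, 69.8, 69.1 and 74.5 FPKM. Both scaffold genes were above control in all 3 treated groups. Psmd4, which encodes a ubiquitin receptor, was at 55.7, 60.1, 52.6 and 74.5 FPKM.

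The remaining lid genes were split. Psmd14, the deubiquitinase of the lid, was at 57.2 FPKM in control, 39.7 after 4HC, 36.1 with the antibody and 52.3 with IFNβ, 1.44-fold lower after 4HC and the lowest ratio of the class in every comparison with control. Psmd7, which pairs with Psmd14 in the particle, was at 59.8, 44.4, 41.0 and 86.4 FPKM, so it lay below control after 4HC (log2 ratio -0.43) and above it with IFNβ (0.53). Psmd6 was at 33.4, 26.5, 25.9 and 45.6 FPKM with the same pattern. Psmd11 was at 31.6, 28.5, 27.8 and 45.6 FPKM. Psmd12 was at 31.7, 31.9, 32.0 and 46.7 FPKM, and Psmd3 at 40.9, 44.7, 42.1 and 60.6 FPKM. Both differed little from control in the 4HC groups, and the log2 ratio of Psmd12 after 4HC, 0.00, became -0.10 relative to the median of all genes.

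**Figure D2:**
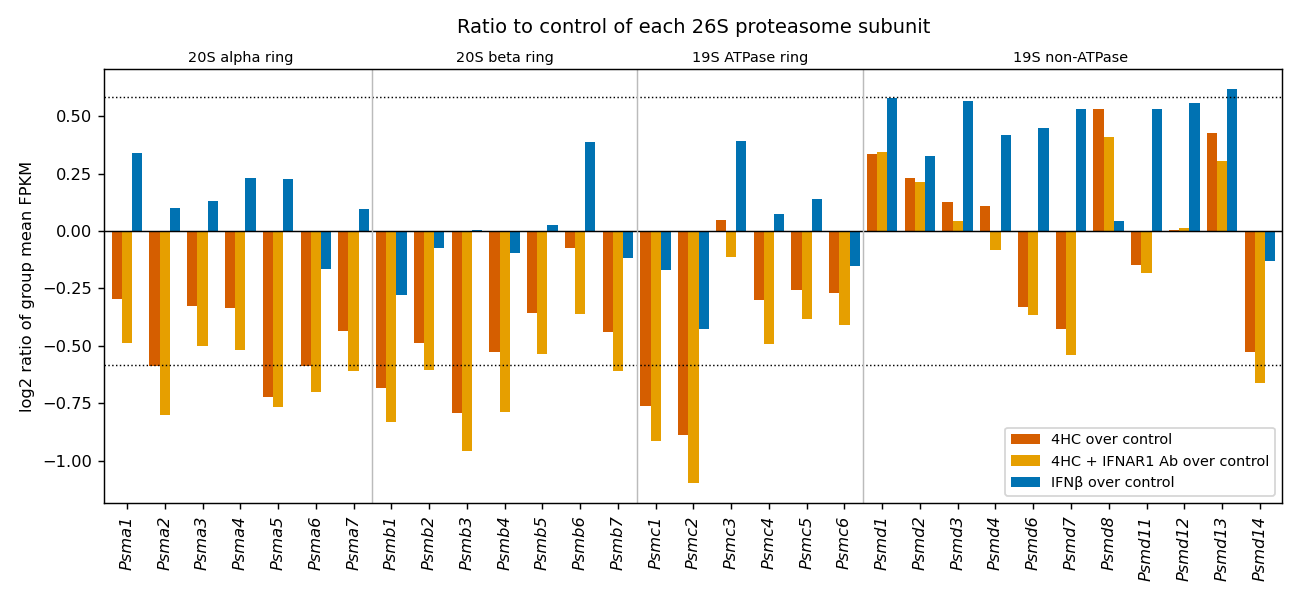
Log2 ratio of group mean FPKM to control for each of the 31 subunits (bars: orange, 4HC; yellow, 4HC with IFNAR1 antibody; blue, IFNβ), with dotted lines at 1.5-fold. Bars of the 14 core genes point down for both 4HC groups, with Psmc2 of the ATPase ring lowest at -0.89 and -1.10, and 10 of the 11 non-ATPase bars point up for IFNβ; the 3 sets of bars share the control means.

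The antibody comparison, 4HC with antibody over 4HC alone, moved no member past 1.5-fold in either direction, against 0.427% of all genes higher and 1.33% lower. The differences were small and mostly of 1 sign: 32 of the 35 members were below 4HC alone, with a median log2 ratio of -0.14 against -0.02 over all genes. Of all 10315 genes, 5853 were below 4HC alone. Of 659 genes with a transcript under 2000 bases and a mean of at least 25 FPKM, 601 were, so this sign was not particular to the members. The lowest member was Psmb6, at 1.22-fold below 4HC alone, followed among the core genes by Psmb4 at 1.20-fold. Psmd1 and Psmd12 were the subunits above 4HC alone, each at a log2 ratio of 0.01, and Psmd2 and Psmd5 (-0.01 each) were above it relative to the median of all genes. The core, ATPase and non-ATPase medians were -0.17, -0.16 and -0.09.

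Over all genes this comparison varied with transcript length: the median log2 ratio was -0.10 for 2355 genes with a longest protein-coding transcript under 2000 bases and 0.00 for 7085 longer genes. Members with a transcript under 2000 bases numbered 26, and their median was -0.16. Relative to genes of like length, the core median was -0.06 in place of -0.17. The part of transcript length in the members' values was not tested further.

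With 4HC and antibody against control, 13 of the 35 members were lower by over 1.5-fold, against 12.7% of all genes, and none was higher, against 23.6%. The members' median log2 ratio was -0.49, against 0.08 over all genes. Relative to genes of like level, 4 members were lower by over 1.5-fold, against 14.9% of all genes. The 13 comprised 4 alpha genes, 5 beta genes, the ATPases Psmc1 and Psmc2, the deubiquitinase gene Psmd14 and the chaperone gene Psmd9. The largest were Psmc2 at 2.14-fold, Psmb3 at 1.94-fold and Psmc1 at 1.89-fold lower, and Psmb4, at 1.44-fold lower after 4HC alone, was 1.73-fold lower here. Psmd8 (1.33-fold), Psmd1 (1.27-fold) and Psmd13 (1.24-fold) remained above control. The non-ATPase median was 0.02, which became -0.06 relative to the median of all genes. This comparison shares its control libraries with those of 4HC and of IFNβ, so their values are set side by side and not read as independent.

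With IFNβ over control, 2 of the 35 members were higher by over 1.5-fold, against 16.7% of all genes, and none was lower, against 11.3%. Those 2 were Psmd13 of the lid, at 1.54-fold, and Psmc3ip, which is no proteasome subunit. The members' median log2 ratio was 0.13, against 0.02 over all genes. The non-ATPase median was 0.53, with 10 of 11 genes above control and Psmd14 below it. Of all 10315 genes, 5362 were above control with IFNβ. Psmd1 lay just short of the line (1.496-fold), and Psmd3 (1.48-fold), Psmd12 (1.47-fold), Psmd7 (1.45-fold) and Psmd11 (1.44-fold) followed. The beta ring and ATPase medians were -0.07 and -0.04, and Psmc2, at 1.35-fold lower, was the subunit furthest below control.

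The members' ratios also went with their level. Over the 31 subunits, Spearman's rho between the log2 ratio and the mean FPKM was -0.61 for 4HC, -0.65 for 4HC with antibody and -0.69 for IFNβ, each over control. These are descriptions across genes of the same libraries, which are not independent replicates. The same group means, control included, enter both the ratio and the mean FPKM, so rho does not relate separate measurements. Over all 9440 genes with a known transcript length, the corresponding rho was -0.26, -0.30 and -0.07. In 20 bins of level, the all-gene median for 4HC over control ran from 0.42 in the lowest to -0.20 in the highest bin. Relative to genes of like level the core median was -0.29 after 4HC, in place of -0.46, and the non-ATPase median was 0.29. The ATPase ring median was -0.11 on this scale, in place of -0.29. So the core and the non-ATPase genes stood on opposite sides of other genes of their level by median, but on this scale only Psmb3, Psmc2 and Psmd9 were over 1.5-fold lower and Psmd8 over 1.5-fold higher after 4HC, against 13.6% and 18.5% of all genes on that scale. For 4HC, 659 genes under 2000 bases and of at least 25 FPKM had a median of -0.21 and 715 longer ones of that level had -0.12. Relative to genes of like length the core median was -0.44 and the non-ATPase median 0.03.

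**Figure D3:**
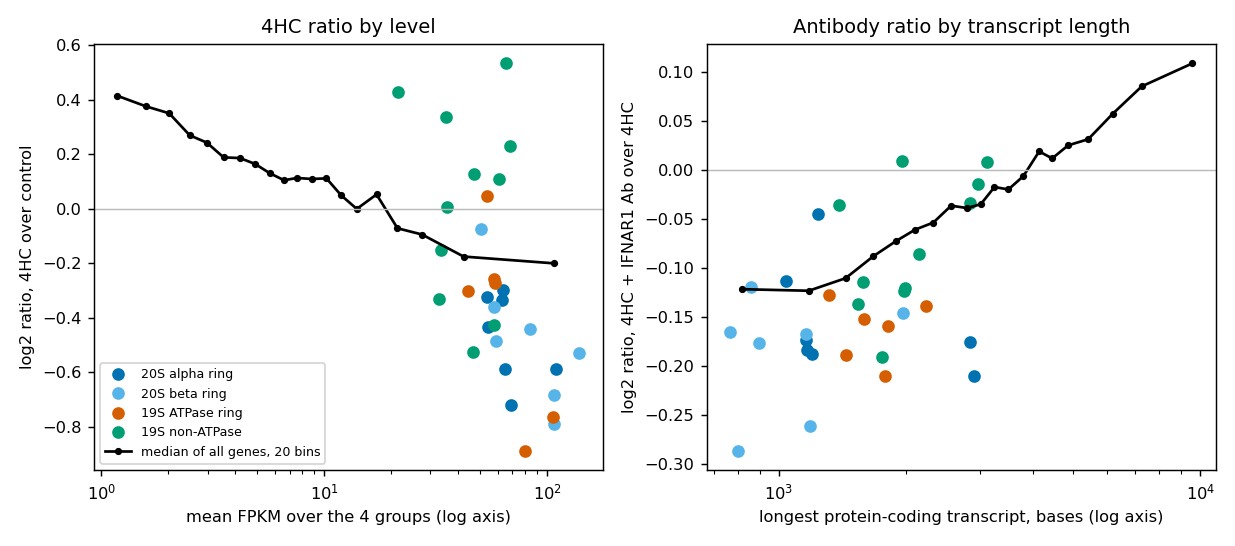
Left, log2 ratio of 4HC over control against mean FPKM over the 4 groups (log axis); right, log2 ratio of 4HC with IFNAR1 antibody over 4HC alone against length of the longest protein-coding transcript in bases (log axis). Colored points are the 31 subunits by class, and the black line joins the medians of all genes in 20 bins, which run from 0.42 to -0.20 on the left and from -0.12 to 0.11 on the right.

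The 3 chaperones of 19S assembly were each below control after 4HC. Psmd5 was at 28.4, 25.5, 25.3 and 26.04 FPKM in control, 4HC, antibody and IFNβ cells. Psmd9 was at 7.41, 5.23, 4.89 and 9.97 FPKM, and Psmd10 (gankyrin) at 11.8, 8.90, 9.27 and 8.63 FPKM. Psmd10 was the member furthest below control with IFNβ, at a log2 ratio of -0.45.

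Among the genes outside the somatic 26S particle, Psmc3ip, a recombination factor named for its binding to Psmc3, was at 4.22, 6.84, 5.87 and 10.99 FPKM. It was the only member past 1.5-fold above control after 4HC (1.61-fold) and it had the highest member ratio with IFNβ (2.57-fold). Its span overlaps Mlx, a row with a mean of 7.41 FPKM. Psma8, a testis alpha subunit, was listed at 0 in all 4 groups. Psmb11, the thymus beta subunit, was listed at 0 in the 4HC and IFNβ groups and at 0.0035 and 0.0057 FPKM in control and antibody cells, which is about 1.03 and 2.85 reads over the group if its span is its transcript. At this depth neither tissue-specific subunit was detected above a few reads.

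After 4HC the inducible counterparts of the catalytic subunits went the other way. Psmb8, the counterpart of Psmb5, was at 17.9 FPKM in control, 57.4 after 4HC, 33.0 with the antibody and 68.8 with IFNβ. Psmb9, the counterpart of Psmb6, was at 1.42, 9.12, 5.63 and 13.0 FPKM. Psmb10, the counterpart of Psmb7, was at 15.2, 25.5, 15.3 and 71.2 FPKM. All 3 were over 1.5-fold above control after 4HC and with IFNβ. They were over 1.5-fold lower with the antibody than with 4HC alone, where the constitutive counterparts were also lower, by 1.12-fold to 1.22-fold.

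As a share of the FPKM of its pair, Psmb8 took 21.2% in control, 52.5% after 4HC, 41.9% with the antibody and 50.3% with IFNβ. Psmb9 took 2.77%, 16.1%, 12.6% and 16.6% in the same order. Psmb10 took 13.1%, 25.6%, 18.8% and 43.4%. After 4HC the constitutive partner was 1.28-fold (Psmb5), 1.05-fold (Psmb6) and 1.36-fold (Psmb7) lower than in control. With IFNβ Psmb5 and Psmb6 were 1.02-fold and 1.31-fold higher and Psmb7 was 1.08-fold lower. FPKM is per length, so levels can be set side by side, but the shares describe mRNA and not particles.

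**Figure D4:**
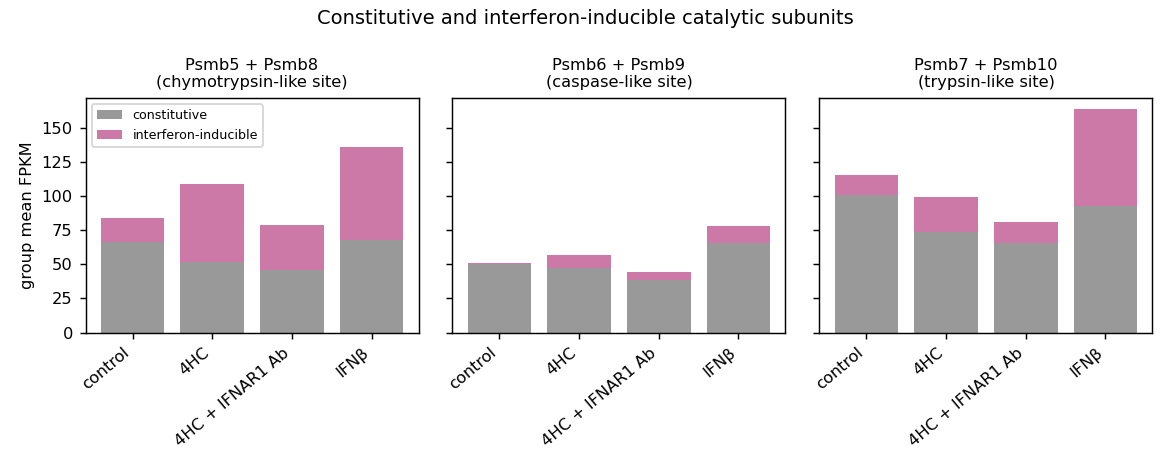
Group mean FPKM of each constitutive catalytic subunit (gray) with its inducible counterpart stacked on it (pink), in the 4 groups. The gray part is lower than control in both 4HC groups for all 3 pairs, and the pink part of Psmb5 and Psmb8 makes up 21.2% of the bar in control and 52.5% after 4HC.

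Of the activators and the inhibitor that bind the core, Psme1 (a subunit of the interferon-inducible 11S cap) was at 20.8, 62.1, 48.2 and 68.9 FPKM in control, 4HC, antibody and IFNβ cells. Its partner Psme2 was at 69.8, 74.7, 53.7 and 103 FPKM, with a near copy, Psme2b, at 0.164 to 1.86 FPKM that may share its reads. Psme3, the nuclear cap, was at 44.6, 30.5, 28.7 and 40.8 FPKM, following the core genes in direction. Psme4 was at 11.6, 12.4, 13.0 and 11.3 FPKM, and the inhibitor Psmf1 at 4.88, 4.59, 4.42 and 6.78 FPKM. In this list of 5 only Psme1 passed 1.5-fold after 4HC or IFNβ, where 23.6% and 16.7% of all genes were higher by that fold.

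All 8 assembly factors, the 3 chaperones above included, were below control after 4HC, as were 4446 of all 10315 genes. By over 1.5-fold, 2 were below control after 4HC and 5 with the antibody, against 10.2% and 12.7% of all genes. Pomp, the maturation factor of the core, was at 85.6, 45.0, 44.4 and 91.8 FPKM, 1.90-fold lower after 4HC and near control with IFNβ. Psmg3 was at 17.5, 11.3, 9.05 and 17.0 FPKM. Psmg2 was at 18.7, 12.5, 11.2 and 13.1 FPKM. These chaperones of alpha ring assembly were joined by Psmg1 (11.7, 10.05, 9.41 and 12.7 FPKM) and Psmg4 (18.4, 14.75, 11.5 and 22.0 FPKM).

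Of 12 proteins associated with the 26S particle, 2 were over 1.5-fold lower after 4HC, against 10.2% of all genes, and none higher, against 23.6%. Shfm1, the small lid subunit also called Sem1, was at 149, 80.3, 73.1 and 117 FPKM, and Txnl1 was at 32.65, 19.7, 18.0 and 28.4 FPKM. With IFNβ 3 of the 12 were over 1.5-fold higher, against 16.7% of all genes. They were the ubiquitin receptor gene Adrm1 (37.5 in control and 63.8 with IFNβ), Ubqln2 (2.01 and 3.90 FPKM) and Ubqln4 (23.7 and 38.9 FPKM). Of 9 genes that control proteasome transcription, none passed 1.5-fold after 4HC. With IFNβ Nfe2l1 was at 34.9 FPKM against 60.2 in control and Maff at 4.78 against 7.44, while Ddi2, the protease that activates Nrf1, was at 10.4 against 6.22.

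Genes around the proteasome showed both patterns. Of all genes, 10.2% were over 1.5-fold lower and 23.6% higher after 4HC, and 16.7% were higher with IFNβ. Rps27a, which encodes ubiquitin fused to a ribosomal protein, was at 1021, 579, 501 and 761 FPKM, over 1.5-fold lower after 4HC. Of 8 chaperonin ring genes, 2 were over 1.5-fold lower after 4HC: Cct8 (136, 72.5, 69.6 and 119 FPKM) and Cct6a (216.5, 119, 107 and 185 FPKM). The 91 cytosolic ribosomal protein genes that passed the filter had a median log2 ratio of -0.25 after 4HC, with 16 over 1.5-fold lower and 3 higher, so lower values after 4HC were not confined to proteasome genes. Of 9 MHC class I loading genes, 7 were over 1.5-fold higher after 4HC and 5 with IFNβ. Tap1, the peptide transporter, was at 4.09, 8.82, 4.06 and 37.8 FPKM, and Tapbp at 24.9, 51.5, 37.7 and 76.5 FPKM. Of 8 heat shock genes, 7 were over 1.5-fold higher with IFNβ, among them Hspa8 (315, 730, 789 and 2712 FPKM) and Hspa1b (3.90, 4.39, 5.24 and 55.9 FPKM). A relation between these genes and the non-ATPase subunits, 10 of 11 of which were above control with IFNβ and 1 by over 1.5-fold, was not tested.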

How the data were processed

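RNA was sequenced from 11 poly(A)-selected, strand-specific libraries of 4T1 cells in 4 groups. Per the submitters' processing notes and the study's methods, TopHat2, featureCounts, edgeR and the mouse build mm9 were used. Neither versions nor a strand setting for the counting was given in the sources used here. The authors deposited 1 table with mean FPKM (fragments per kilobase of gene and M reads, M for mega) per group. Its other columns hold the authors' own edgeR ratios, fold changes and p-values for pairs of groups, and these were not used. An edgeR fit had been planned for values per library, which the table does not hold, so results are descriptive. Members and gene lists were chosen with earlier results of these data known.

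Log2 ratios used a pseudocount of 0.1 FPKM, which understates changes of low genes, a filter of 1 FPKM on the mean over the groups, and a line of 1.5-fold. Transcript lengths came from GENCODE M21 by symbol, for all 37 members and 91.5% of genes that passed. Promoters came from RefSeq; gene coordinates are mm9 spans as listed in the table, exons and introns included. A planned comparison of protein sequences was not run. Named genes were the catalytic subunits, the highest and lowest level and ratio in each class, members past 1.5-fold or under the filter, Psmc3ip, all immunoproteasome, activator, inhibitor and assembly genes, and up to 4 genes past 1.5-fold of each other list, of which 1 item is not reported here. Members not covered by this rule were added after their values were seen. Scripts ran in Python 3.11.15 with pandas 2.3.3 and scipy 1.17.1 and were tested on simulated data. Alternatives were the pseudocount, filter, fold, scaling and set of members.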

Additional observations from a re-analysis of the deposited data

How the results depend on the processing

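No alternative turned the sign of a members' median or of a member past 1.5-fold. For 4HC over control, centring on the median of all genes gave a members' median of -0.43 with 0 higher and 11 lower by over 1.5-fold (all genes 19.96% and 14.1%), and a trimmed mean gave -0.44 with 0 and 11. For 4HC with antibody over control these scalings gave medians of -0.57 and -0.58, and for IFNβ the trimmed mean left 1 higher. At a fold of 5 to 4 the counts of members higher and lower were 4 and 19 after 4HC (all genes 35.9% and 22.4%), 3 and 24 with the antibody over control (35.9% and 25.1%), and 14 and 2 with IFNβ (29.6% and 23.4%). At a fold of 2 they were 0 and 0 after 4HC (all genes 11.8% and 2.11%). At this fold 1 was lower for the antibody over control (all genes 3.22%) and 1 higher for IFNβ (6.93%). Without the 6 members outside the somatic 26S particle, 0 were higher after 4HC and 1 with IFNβ. Centring on genes of like transcript length or like level was chosen after seeing the data. Like length gave medians of -0.40 (4HC), -0.050 (antibody over 4HC) and -0.40 (antibody over control, with 1 higher). Like level gave -0.15 with 3 lower (4HC, all genes 13.6%), -0.0633 (antibody over 4HC), -0.25 with 1 higher and 4 lower (antibody over control, all genes 19.5% and 14.9%), and 5 higher with IFNβ (15.4%), so these counts were at or below the share of all genes. Over single members, 1082 values were within the counting interval of the main value and 302 moved beyond it. The filters and the choice of members cannot change the ratio of a single member. Their values are among the 1082, so this count does not measure stability. The pseudocount and filters changed no count by over 1.5 times. Leaving out single libraries could not be run. No paired analysis was possible because the table holds group means and no value per library.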
